A study of Mus musculus with 2 samples.

Results

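The mir-29 family of mouse heart comprises 4 miRNA genes, Mir29a, Mir29b-1, Mir29b-2 and Mir29c, of the 2202 miRNA genes in the deposited tables. They were chosen by name, as the members of the Mir29a/Mir29b-1 and Mir29b-2/Mir29c gene pairs in the GENCODE M21 annotation, and not by their level. Short RNAs under 30 nt were sequenced from heart tissue of B6CASTF1/J males, animals with a B6 and a CAST parent, aged 36 days by the age label (a free-text label gives the same number in months). No allele, transgene or treatment is labelled. The 2 libraries, numbered as biological replicates 1 and 2, form 1 group, so the design gives levels and a comparison of replicates, with no contrast between conditions. The labels number the males differently but give both the same donor record, so the spread between libraries may be partly technical.

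A miRNA is cut from a hairpin precursor, which yields a 5p and a 3p arm. The arm that is loaded into an Argonaute protein pairs with messenger RNAs mainly through its seed, bases 2 to 8 from the 5′ end. In mir-29 the 3p arm is the usual guide strand. The family is known for repressing transcripts of the extracellular matrix, among them fibrillar collagens, fibrillin and elastin, and a fall in mir-29 has been described in the fibrotic border of infarcted hearts. Work in heart muscle cells has also described a part for mir-29 in hypertrophy, so the name antifibrotic holds for some settings only. Neither matrix transcripts nor fibrosis were measured here.

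The 3p arms are shown first because their sequence defines the family and decides which loci a read can match. Capitals mark the seed in these RefSeq sequences (build GRCm38.p6).
miR-29a-3p: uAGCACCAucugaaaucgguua
miR-29b-3p: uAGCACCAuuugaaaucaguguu
miR-29c-3p: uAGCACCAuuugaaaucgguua
All 4 loci carried the seed AGCACCA, and in 1738 annotated mature sequences the same seed occurred in 4 entries, those of Mir29a, Mir29b-1, Mir29b-2 and Mir29c. The family label therefore matched the sequences. The 5p arms had other seeds and differed among all 4 genes, so the 8 annotated arms held 7 distinct sequences, the repeated one being miR-29b-3p.

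The 3p arms differ after the seed, at the places in capitals below. In miR-29a-3p and miR-29c-3p the capital is the base by which they differ, and in miR-29b-3p the capitals are the terminal AGUGUU, known from work on human miR-29b as an element that directs import into the nucleus.
miR-29a-3p: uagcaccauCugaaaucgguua
miR-29c-3p: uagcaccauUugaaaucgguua
miR-29b-3p: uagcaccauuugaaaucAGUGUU
Counted from 1 at the 5′ end, miR-29a-3p and miR-29c-3p differ by the single substitution C10U. From miR-29c-3p to miR-29b-3p there are 3 substitutions, G18A, U21G and A22U, and miR-29b-3p is 1 base longer (23 nt against 22 nt). AGUGUU ended 3 of the 1738 mature sequences, those of Mir29b-1, Mir29b-2 and Mir92b.

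The precursors are shown because they tell which loci are alike. Capitals mark the 5p and the 3p arm of each hairpin.
Mir29a: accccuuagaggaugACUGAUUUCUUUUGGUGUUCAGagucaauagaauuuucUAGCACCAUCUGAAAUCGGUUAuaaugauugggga
Mir29c: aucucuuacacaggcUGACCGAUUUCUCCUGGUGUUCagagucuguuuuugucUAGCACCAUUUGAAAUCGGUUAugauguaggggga
Mir29b-1: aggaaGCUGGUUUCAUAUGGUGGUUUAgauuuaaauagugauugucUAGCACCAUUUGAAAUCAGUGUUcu
Mir29b-2: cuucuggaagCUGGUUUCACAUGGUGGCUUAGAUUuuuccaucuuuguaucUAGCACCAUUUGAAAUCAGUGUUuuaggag
The hairpins most alike were those of like type on different chromosomes. Over a global alignment, Mir29a and Mir29c were 78.0% identical and Mir29b-1 and Mir29b-2 were 73.2% identical. The neighbours on 1 chromosome were 60.4% identical for Mir29a and Mir29b-1, and 63.2% for Mir29b-2 and Mir29c. Unlike types on different chromosomes were 58.8% (Mir29a and Mir29b-2) and 55.9% (Mir29b-1 and Mir29c) identical. Each pair thus holds 1 gene of the 29b type and 1 of the 29a and 29c type.

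In the mm10 assembly Mir29a lies on the minus strand at chr6:31062660-31062747 and Mir29b-1 at chr6:31063023-31063093, with 275 nt between them. Mir29a overlaps no other annotated gene, and Mir29b-1 overlaps the first exon of the long non-coding RNA Gm27019 by 2 nt. Mir29b-2 at chr1:195037040-195037120 and Mir29c at chr1:195037547-195037634 lie on the plus strand, 426 nt apart. Both are contained in exon 3 of 1 of the 4 annotated transcripts of A330023F24Rik, a non-coding host transcript on the same strand. On the opposite strand both lie within exon 11 of 1 of the 4 transcripts of Cd46, which encodes a complement regulatory protein. No read was counted on the antisense strand of any of the 4 genes in either library, so the overlap with Cd46 added nothing to their counts of both strands.

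**Figure D1:**
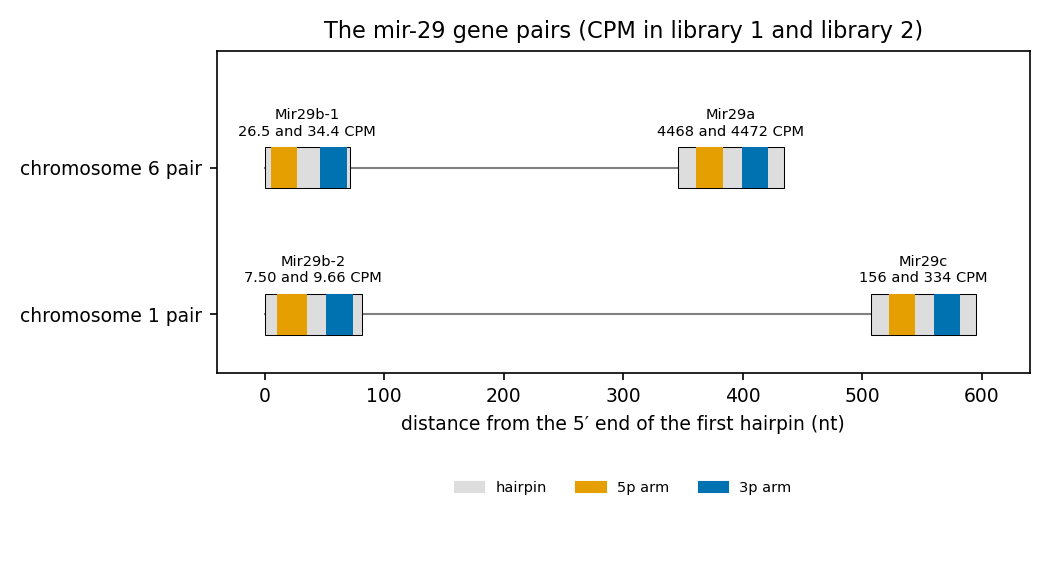
Each line is 1 gene pair drawn to scale in nt from the 5′ end of its first hairpin, with hairpins in grey, 5p arms in orange and 3p arms in blue. In both pairs the 29b hairpin comes first, and the second hairpin, Mir29a or Mir29c, has the higher CPM in both libraries.

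The arms are not equally easy to place on a locus. The first 10 nt of miR-29a-3p occurred in no other annotated hairpin, while the first 17 nt of miR-29b-3p and of miR-29c-3p were the same and occurred in 3 hairpins. From 18 nt on, miR-29c-3p matched 1 hairpin. Whole miR-29b-3p matched 2, and a stretch of 25 nt around it was identical in Mir29b-1 and Mir29b-2. A read lying inside that stretch matches both loci equally, and the deposited tables put reads mapped to several places in a row of their own, with no gene. That row held 41.5% of the reads of library 1 and 42.9% of those of library 2. How many of them came from miR-29b-3p was not analysed here, so the counts of the 29b genes are uncertain and may be far below the amount of the molecule. The 5p arms of Mir29b-1 and Mir29b-2 each matched 1 hairpin. By the wider criterion of any shared stretch of 22 nt, Mir29c also counted as shared, with Mir29b-1, but that stretch begins before the 3p arm and takes in its first 17 nt only. With 1 mismatch, miR-29a-3p and miR-29c-3p each matched the other's hairpin, and whether the authors' counting allowed a mismatch is not given in the labels.

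**Figure D2:**
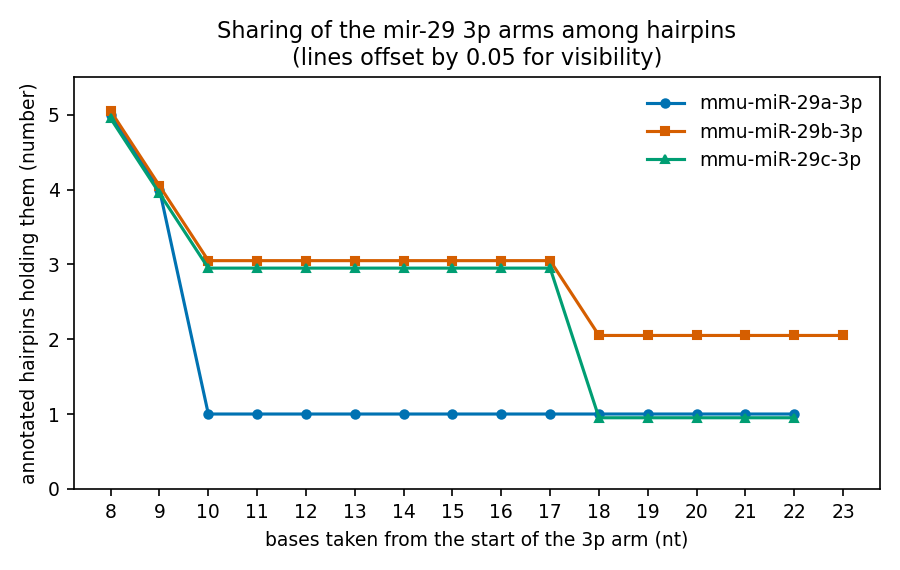
The horizontal axis is the number of bases read from the 5′ end of each 3p arm, and the vertical axis the number of the 2202 annotated hairpins that contain them. miR-29a-3p is down to 1 hairpin at 10 nt and miR-29c-3p at 18 nt, while miR-29b-3p stays at 2 hairpins for its whole length.

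Sense-strand reads in miRNA genes numbered 1999362 in library 1 and 1862526 in library 2. Levels are counts per 1000000 of these reads (CPM), and both arms of a hairpin are counted in its gene. Intervals are exact Clopper-Pearson 95% intervals and cover counting error only. With 8.58 ± 1.53 CPM (SD, n = 2) for the lowest member, all 4 genes lay above the 1.5 CPM in library 1 and 1.61 CPM in library 2 that a count of 0 allows (3 counts). The 7 genes of the heart muscle list were together at 8556 CPM (library 1) and 6697 CPM (library 2), with none at 0 in both libraries. Mir208a alone gave 81.9% and 50.7% of this. Mir1a-1, Mir133a-1 and Mir133a-2 had only 2 to 6 reads in each library, and Mir133a-2 was under the limit in library 2 (1.07 CPM). Whether these genes share an arm with another locus was not resolved here. Reads mapped to several places are in no gene, so the low counts need not mean low amounts of the miRNAs. In bulk tissue fewer cells of a type and less RNA per cell cannot be told apart.

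The family's counted reads came almost wholly from Mir29a. In library 1 the 4 genes held 9313 reads, or 0.466% of assigned reads (interval 0.456 to 0.475), and in library 2 they held 9035 reads, or 0.485% (0.475 to 0.495). Mir29a made up 95.9% of these in library 1 (95.5 to 96.3) and 92.2% in library 2 (91.6 to 92.7). Mir29c made up 3.35% (2.99 to 3.74) in library 1 and 6.90% (6.38 to 7.44) in library 2. The 29b loci together gave 0.730% (0.567 to 0.925) in library 1 and 0.908% (0.722 to 1.13) in library 2. Since reads of miR-29b-3p can be missing, these are shares of counted reads only.

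Mir29a, the gene of the chromosome 6 pair whose 3p arm is unlike the others at base 10, had 8933 reads or 4468 CPM in library 1 (4376 to 4561) and 8330 reads or 4472 CPM in library 2 (4377 to 4569). The libraries overlapped, and the mean was 4470 ± 3.18 CPM (SD, n = 2). This SD depends on the scaling, being 419.7 CPM with TMM and 421 CPM with DESeq2 size factors. It ranked 30 of 2202 genes in library 1 and 29 in library 2.

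Mir29c, on chromosome 1, had 312 reads or 156 CPM in library 1 (139 to 174) and 623 reads or 334 CPM in library 2 (309 to 362). These intervals did not overlap, and the mean was 245 ± 126 CPM (SD, n = 2). Its rank was 124 in library 1 and 95 in library 2.

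Mir29b-1, beside Mir29a, had 53 reads or 26.5 CPM in library 1 (19.9 to 34.7) and 64 reads or 34.4 CPM in library 2 (26.5 to 43.9). Mir29b-2, beside Mir29c, had 15 reads or 7.50 CPM in library 1 (4.20 to 12.4) and 18 reads or 9.66 CPM in library 2 (5.73 to 15.3). The intervals of both genes overlapped between the libraries. The means were 30.4 ± 5.55 CPM and 8.58 ± 1.53 CPM (SD, n = 2).

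**Figure D3:**
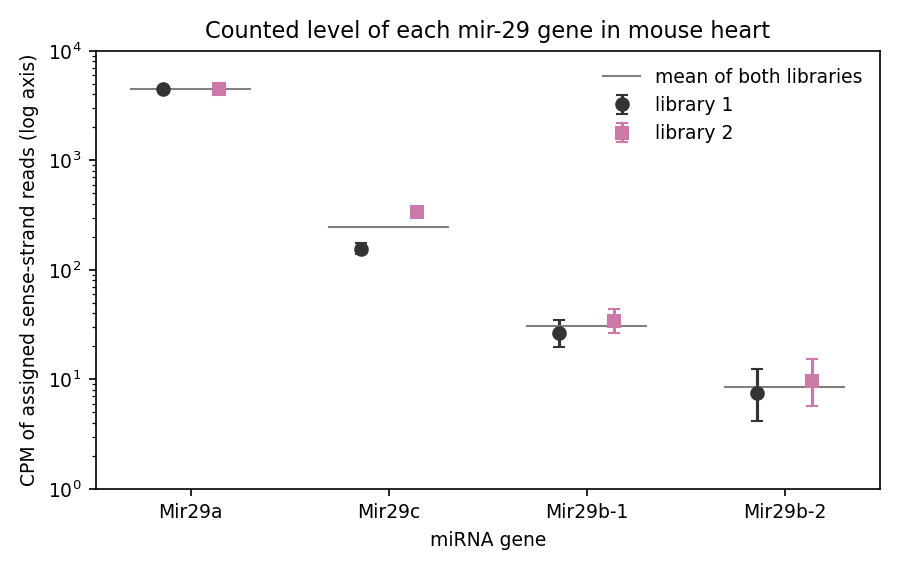
Points are the CPM of each gene in library 1 (circles) and library 2 (squares) on a log axis, with exact 95% counting intervals (smaller than the symbol where not seen) and the mean as a line. Mir29a sits at 4468 and 4472 CPM, Mir29c at 156 and 334, Mir29b-1 at 26.5 and 34.4, and Mir29b-2 at 7.50 and 9.66.

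The order Mir29a, Mir29c, Mir29b-1, Mir29b-2 was the same in both libraries, and the counting intervals of neighbours in it overlapped in neither. Ratios within a library do not depend on its total. Mir29a exceeded Mir29c 28.6-fold in library 1 (25.6 to 32.2) and 13.4-fold in library 2 (12.3 to 14.5). The intervals did not overlap, so this ratio differed between the libraries beyond counting error, and its mean log2 was 4.29 ± 0.78 (SD, n = 2).

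Within the chromosome 6 pair, Mir29a exceeded Mir29b-1 169-fold in library 1 (129 to 225) and 130-fold in library 2 (102 to 169). Within the chromosome 1 pair, Mir29c exceeded Mir29b-2 20.8-fold in library 1 (12.4 to 37.6) and 34.6-fold in library 2 (21.7 to 58.8). Both pairs of intervals overlapped. These ratios have a 29b gene below the line and so rest on the counts that are uncertain.

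The 29b genes were also set against each other. Reads lying inside their shared stretch match both loci, so this ratio rests on the reads that were placed on 1 locus. Which arm or end those reads came from was not analysed, so it need not be the ratio of the molecules made. Mir29b-1 exceeded Mir29b-2 3.53-fold in library 1 (1.96 to 6.75) and 3.56-fold in library 2 (2.08 to 6.38). Summed by pair, the chromosome 6 genes exceeded the chromosome 1 genes 27.5-fold in library 1 (24.6 to 30.8) and 13.1-fold in library 2 (12.1 to 14.2). Each sum holds a 29b gene, so an unknown number of miR-29b-3p reads may be missing from either side, which the intervals do not cover. For each of the 5 ratios the exact two-sided sign-flip test over 2 libraries gave p = 0.5, the smallest it can give.

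The libraries were then compared gene by gene, as library 1 over library 2, for the 344 genes with 10 or more counts summed. The test was a two-sided exact binomial test of each gene's reads in library 1, given its reads in both and the library totals, with Benjamini-Hochberg adjustment over all 344. A gene was called at an adjusted p under 0.05 and a difference of 2-fold or more. The test sets 2 replicate libraries against each other on counting error alone and says nothing of conditions. It called 59 genes (17.2%), of which 40 were higher (11.6%) and 19 lower (5.52%) in library 1. With TMM scaling, which uses a trimmed mean of log ratios, 27 were higher and 28 lower. By adjusted p alone 186 genes (54.1%) passed.

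Of the 4 members 1 was called, a count that does not set them apart from the 17.2% of all tested genes. Mir29c was lower in library 1, with a log2 ratio of -1.10 and an adjusted p of 6.82e-29. Of the 140 other genes that averaged at least 100 CPM, 12 had a larger difference in either direction, where the median size was 0.34. Mir29a had a log2 ratio of 0.00 (adjusted p = 0.986), and each of those 140 genes differed more. TMM scaling moved the median of all tested genes by -0.19. With it Mir29a stood at -0.19, with 89 of the 140 genes differing more, and Mir29c at -1.29. Mir29b-1 was at -0.37 (adjusted p = 0.258) and Mir29b-2 at -0.36 (adjusted p = 0.607), each below 2-fold. At 33 to 117 counts summed, a difference of that size was not detectable.

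**Figure D4:**
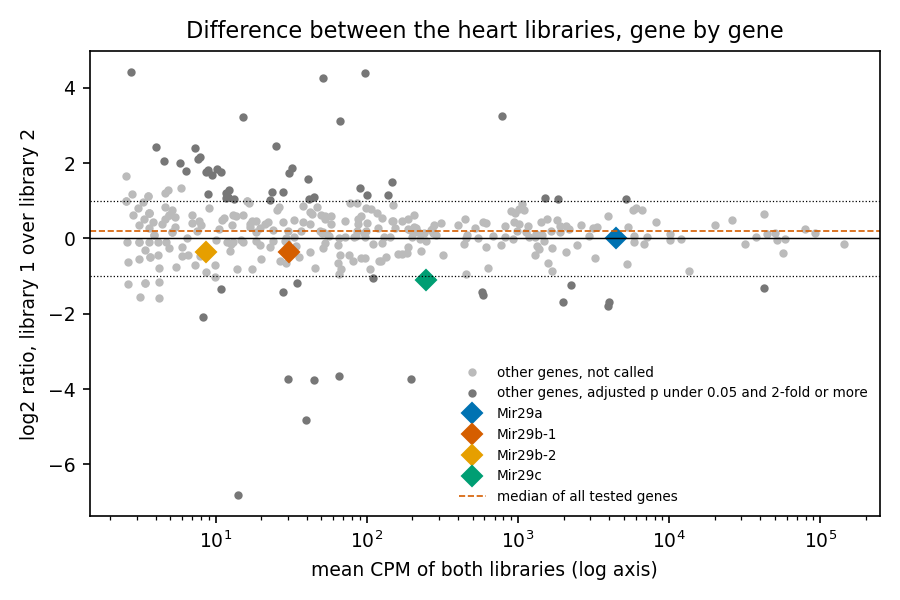
Each point is 1 of the 344 tested genes, with its mean CPM on a log axis against its log2 ratio of library 1 over library 2. Dotted lines mark 2-fold, the dashed line the median of 0.19, and diamonds the members, of which Mir29a lies at 0.00 and Mir29c at -1.10.

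Markers of several cell types also differed between the libraries. The fibroblast list, with 3 of 4 genes counted and Mir199a-1 at 0 in both, was at 2484 CPM in library 1 and at 1201 CPM in library 2, of which Mir214 alone gave 99.5% and 99.2%. Mir214 was opposite in direction to Mir29c, as was Mir199a-2 (17 and 6 reads, log2 ratio 1.33), while Mir199b (8 and 13 reads) stood at -0.77. Neither of these Mir199 genes was called, and the Mir199 genes have arms found in 3 hairpins. The cardiac muscle list had 7 of 7 genes counted at 8556 and 6697 CPM. In it Mir1a-1, Mir133a-1 and Mir133a-2 had only 1.07 to 3.00 CPM and may be undercounted. Members of this list moved in opposite directions. Mir208a was called higher in library 1 (log2 ratio 1.05) and Mir499 lower (-1.23), the direction of Mir29c. The endothelial gene Mir126a had 48924 CPM in library 1 against 63819 CPM in library 2. The smooth muscle list (2 of 2 genes counted) was at 39517 and 38697 CPM, the erythroid list (3 of 3) at 2452 and 1970 CPM, and the leukocyte list (3 of 3) at 1668 and 1958 CPM. Mir206 of skeletal muscle had 97.0 CPM in library 1 and 4.83 CPM in library 2, and Mir122 of liver 119 and 13.4 CPM. The part of any of these in the Mir29c difference was not tested.

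Other miRNAs described in fibrosis of the heart or other organs were taken from a list of 15, chosen with earlier results of these data known. By counted reads none of them had a higher mean than Mir29a, and 6 had a higher mean than Mir29c. In library 2, however, Mir21a stood above Mir29a (6143 against 4472 CPM). Mir199a-1, Mir199a-2 and Mir199b, at 0 to 17 reads per library, have arms found in 3 hairpins and can be undercounted. Mir133a-1 and Mir133a-2 had 2 to 6 reads per library. No arm of theirs was matched, so whether they are undercounted could not be judged. Among the 12 tested, 1 was called higher and 1 lower in library 1, against 59 of 344 genes overall. These were Mir214, higher, and Mir21a, lower. With TMM scaling 0 were called higher and 3 lower, namely Mir21a, Mir24-1 (log2 ratio -1.01) and Mir101a (-1.13), the last named after its values were seen. The median level over all 15 was 129 CPM, against 55.2 CPM over all tested genes.

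The members nearest to Mir29a in level were Mir21a, Mir155, Mir34a and Mir214. Mir21a, which is raised in fibroblasts of failing hearts, had 1776 CPM in library 1 and 6143 CPM in library 2 (log2 ratio -1.79, called). Mir155, known from inflammation, averaged 3341 ± 492 CPM, and Mir34a, a p53 target linked to heart ageing, 3247 ± 798 CPM (SD, n = 2 each). Mir214, made from the Dnm3os transcript with Mir199a-2, had 2471 CPM in library 1 and 1190 CPM in library 2 (log2 ratio 1.05, called, but 0.86 with TMM scaling).

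The others averaging at least 100 CPM lay nearer to Mir29c. Mir30c-2 averaged 932 ± 6.03 CPM and Mir30c-1 453 ± 1.84 CPM (SD, n = 2 each). Their product is known, with miR-133, for repressing connective tissue growth factor. Mir24-2 averaged 212 ± 30.0 CPM, Mir101b 129 ± 3.06 CPM and Mir24-1 105 ± 41.1 CPM (SD, n = 2 each). The Mir30c and Mir24 genes each have an arm found in 2 hairpins, so their counts carry the same uncertainty as those of the 29b genes.

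The families of the heart differ in how their counted reads are spread. In mir-29 the leading gene Mir29a took 94.1% ± 2.63 of the family's reads. In the mir-26 family of 3 genes the leading gene Mir26b took 99.1% ± 1.11. In the mir-30 family of 7 genes Mir30d, which had the highest mean, took 41.9% ± 13.0 (SD, n = 2 each). In library 1, however, Mir30a led that family with 19909 reads, against 19321 for Mir30d. By counted share, mir-29 stood at 0.475% ± 0.0136 of assigned reads, against 2.62% ± 0.596 for mir-26 and 3.19% ± 0.341 for mir-30. These are descriptions of 2 libraries with no test of the difference. Reads mapped to several places are in no gene, so loci with a shared arm can be undercounted in any of the families. In mir-30 the Mir30c-1 and Mir30c-2 genes have an arm found in 2 hairpins. For the mir-26 genes arm sharing was not examined gene by gene. Mir26a-1 had 6 reads in library 1 and 8 in library 2, and Mir26a-2 had 54 and 675, so the lead of Mir26b holds for counted reads only. How far this changed the shares of mir-29, mir-26 and mir-30, or of their leading genes, was not tested.

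The genes whose levels were most like each member's were found as the 3 nearest in the log2(CPM + 1) values of the 2 libraries. For Mir29a these were Mir322 (5356 ± 819 CPM, distance 0.42), Mir744 (3946 ± 1159 CPM, distance 0.52) and Mir100 (5812 ± 245 CPM, distance 0.54). For Mir29c they were Mir30b (228 ± 37.4 CPM, distance 0.54), Mir210 (184 ± 35.6 CPM, distance 0.67) and Mir874 (186 ± 21.4 CPM, distance 0.74). For Mir29b-1 they were Mir5099, Mir8112 and Gm23935, between 28.8 and 30.7 CPM, and for Mir29b-2 Mir1960, Gm49347 and Mir5126, between 7.81 and 9.93 CPM. The distances are on the log2 scale over 2 libraries.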

How the data were processed

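Short RNAs were measured in 2 heart libraries of 1 group. The authors deposited raw counts per miRNA gene, whole numbers in 3 columns (both strands, sense, antisense), made on mm10 with annotation M21, per the text deposited beside the tables. No source used here names an aligner or a counter. The sense column was identified from the values, since it holds more gene reads than the antisense column. Sense and antisense reads in genes were 1999362 and 433044 in library 1, and 1862526 and 450899 in library 2. The 4 status rows (unmapped, several places, no gene, ambiguous) stayed out of totals and tests. All 2202 identifiers matched M21. CPM, intervals, ratios and exact tests were computed with Python 3.11.15 and scipy 1.17.1, adding 0.5 counts before log2. With 1 group edgeR's quasi-likelihood test has no contrast, so edgeR 4.0.16 and DESeq2 1.42.0 gave alternative scalings only. The exact binomial test between libraries was checked with simulated counts that held counting error only. That check does not cover the larger spread between the real libraries. The libraries were not copies (chi-square 92268 on 343 degrees of freedom). Sequences are from RefSeq (GRCm38.p6), with all 4 members matched and identical to the M21 hairpins. Hairpins were aligned with Biopython 1.88. Genes were named as the members, listed genes averaging at least 100 CPM, and the 3 nearest genes of each member. Members and lists were chosen with earlier results of these data known.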

Additional observations from a re-analysis of the deposited data

Results flagged for a closer look

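Reads mapped to several places are signal that the deposited tables assign to no gene, 2273922 in library 1 and 2098983 in library 2. Which of them are miR-29b-3p was not analysed here.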

How the results depend on the processing

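Of 91 values under alternative settings, 75 were kept and 16 moved. A level or a ratio between members was kept within 1 SD, and a library ratio with its direction and call. A count of genes was kept within 1.5-fold, whatever its split by direction. With TMM scaling the genes called went from 40 higher and 19 lower to 27 and 28. In the fibrosis-linked list 1 higher and 1 lower became 0 and 3. Some of the 75 were fixed in advance. With 1 of 2 libraries left out, a level or ratio always lies within 1 SD of the mean. Ratios between members with both strands together equal the main ones, because the members' counts are equal. The 75 therefore overstates how far the results were tried. Mir29c was called lower in library 1 under each of the 8 alternatives of the library test, with log2 ratios from -1.29 to -1.10 and adjusted p from 1.20e-39 to 1.29e-28. Mir29a stayed under 2-fold in each, but its adjusted p was 1.85e-17 with TMM scaling, where its log2 ratio was -0.19. The number of genes called was 33 with 100 or more counts summed, 105 at 1.5-fold and 186 with no fold threshold. With all reads as the denominator the family share was 0.177%, Mir29a 1666, Mir29b-1 11.4, Mir29b-2 3.21 and Mir29c 92.1 CPM. With both strands together the share was 0.617%, Mir29a 5802, Mir29b-1 39.6 and Mir29b-2 11.2 CPM, since the total is smaller there and the members' counts are equal. Without the most abundant gene the share was 0.555%. Mir29a was 4480.0 CPM with TMM and 4500.1 CPM with DESeq2 scaling, past the SD of 3.18, with SDs of 419.7 and 421 CPM. A pseudocount of 1 put the log2 ratio of Mir29b-1 over Mir29b-2 at 1.76. A total of 3 members shared a stretch at 18, 20 or 22 nt. Mir29b-2 has no value with 100 or more counts summed, and with a library left out there is no library ratio. No paired analysis was possible because there is 1 group. Depth limits Mir29b-2 most, at 15 and 18 reads.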

Other observations

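Counted levels were also summarised by whether a gene's mature arms are shared. Among 114 annotated genes with a mature arm found in 2 or more hairpins, 32 (28.1%) had a mean of 10 CPM or more, as had 204 of 904 genes (22.6%) whose arms each match 1 hairpin. The median was 0 CPM over the 114 genes and 0.268 CPM over the 904. Of the 114, 21 had a higher mean than Mir29b-1. This is a description over genes matched to RefSeq by symbol, with no test.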
